A study of Mus musculus with 12 samples.

Results

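The tubulin isotypes are the alpha- and beta-tubulin genes whose proteins pair into the dimers that build microtubules. They were followed as RNA through the last steps of red cell formation in mouse bone marrow. The members are 10 genes chosen by name, 5 of alpha-tubulin (Tuba1a, Tuba1b, Tuba1c, Tuba4a and Tuba8) and 5 of beta-tubulin (Tubb1, Tubb2a, Tubb4b, Tubb5 and Tubb6), of 29838 genes in the expression table. RNA sequencing covered 4 stages of erythroblasts, namely proerythroblasts (Pro), basophilic (Baso), polychromatic (Poly) and orthochromatic (Ortho) cells, with 3 libraries per stage. All groups came from untreated wild-type male C57BL/6 mice of 8 weeks, whose marrow was depleted of CD45+ cells with beads. Before the stages were sorted, dead cells and cells stained for CD45, CD11b or GR1, which mark neutrophils and other white cells, were gated out. Pro cells were sorted as CD44-high and Ter119-low, and the other stages were gated among Ter119+ cells by CD44 and forward scatter. For replicates 2 and 3 of Ortho the cell type field names no stage, and their titles placed them. No source states that replicates came from separate mice, so p-values measure only the spread between these libraries, which may be technical.

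Alpha- and beta-tubulin fold with the help of prefoldin, the CCT chaperonin and dedicated cofactors, and the gamma-tubulin ring complex then seeds microtubules from the dimers. Isotypes differ mostly in the acidic tail at the end of the protein, which lies on the microtubule surface and is read and modified by enzymes. A tyrosine at the very end of most alpha-tubulins can be removed and put back by such enzymes. Erythroblasts divide during terminal maturation, building spindles, and then leave the cell cycle and expel the nucleus. Tubb1 is known as the beta-tubulin of the marginal band in platelets.

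The coding ends are shown because the alpha-tubulins that did not pass the test from Pro to Ortho, Tuba4a and Tuba8, differ from Tuba1c in their last codon. Each line gives the last 60 bases of the coding sequence, stop codon included, from the GENCODE M21 transcripts on mm10. Capitals mark the last codon before the stop.
Tuba1c: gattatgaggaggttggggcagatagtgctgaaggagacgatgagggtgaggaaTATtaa
Tuba4a: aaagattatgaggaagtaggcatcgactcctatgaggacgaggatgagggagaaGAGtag
Tuba8: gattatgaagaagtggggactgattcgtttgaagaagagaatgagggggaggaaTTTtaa
Tubb1: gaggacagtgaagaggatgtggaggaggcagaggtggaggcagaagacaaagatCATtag
Tubb2a: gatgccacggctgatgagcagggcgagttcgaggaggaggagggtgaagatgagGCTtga
Tubb4b: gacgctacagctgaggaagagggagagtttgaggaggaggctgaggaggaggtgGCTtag
Tubb5: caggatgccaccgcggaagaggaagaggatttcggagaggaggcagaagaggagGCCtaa
Tuba1c ends in a tyrosine codon, Tuba4a in a glutamate codon and Tuba8 in a phenylalanine codon. Tubb2a, Tubb4b and Tubb5 end in an alanine codon and Tubb1 in a histidine codon.

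The genes lie on 7 chromosomes of mm10. Tuba1a (chr15:98949837-98953703), Tuba1b (chr15:98931425-98934565), both on the minus strand, and Tuba1c (chr15:99029891-99038110, plus strand) are neighbours. Tuba4a lies at chr1:75214228-75219865 (minus strand), Tuba8 at chr6:121210696-121226854 (plus), Tubb1 at chr2:174450695-174457882 (plus) and Tubb2a at chr13:34074274-34078007 (minus). Tubb4b lies at chr2:25222160-25224702 (minus), Tubb5 at chr17:35833921-35838306 (minus) and Tubb6 on chromosome 18. Each is annotated as protein coding, and the values cover the exons of the whole gene.

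Some members share sequence with other genes, so that reads could be split between them. The coding sequences of Tuba1a and Tuba1b were identical at 98.3% of aligned bases, those of Tuba1a and Tuba1c at 97.1% and those of Tuba1b and Tuba1c at 97.9%. Of all 150-base windows of their transcripts, 54.7% in Tuba1a, 51.5% in Tuba1b and 40.06% in Tuba1c also occurred in another annotated gene. The split among the Tuba1 genes is therefore uncertain. Tubb2a shared 27.9% of its windows, mostly with Tubb2b, and Tubb4b shared 11.9% with the pseudogene Tubb4b-ps1. Tuba4a shared 30.3% with Stk16, which overlaps it on the opposite strand, and Tuba8 shared 10.45% with the antisense gene Gm15856. The counting is not stated to use strand, so reads of these overlapping partners cannot be told apart. Gm15856 itself measured 0 FPKM in the Pro libraries and at most 0.189 in any library (Poly replicate 2). Tubb1, Tubb5 and Tubb6 shared no such window.

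Expression was deposited as FPKM, fragments per kilobase of gene scaled to the mapped fragments of the library. FPKM is a share of each library, and the 12 hemoglobin genes held 8.45% ± 1.95 (SD, n = 3) of all FPKM in Pro and 49.6% ± 2.74 (SD, n = 3) in Ortho, so each other gene is measured against a changing whole. The erythroid markers Gata1, Klf1, Epor, Tfrc, Slc4a1, Alas2, Epb42, Hba-a1 and Hbb-bs were above 0 in all 12 libraries. Markers of other cells, among them white cells that this gate should remove, were present too, and their sums moved with stage, some carried by few genes. The 12 neutrophil markers, none at 0 in any library, summed to 7084 to 8815 FPKM in Pro, 12140 to 14210 in Baso, 15630 to 18470 in Poly and 13930 to 17280 in Ortho. The 10 B cell markers summed to 84.8 to 140.7 FPKM in Pro and 203 to 282 in Ortho, the 10 macrophage markers to 29.7 to 36.0 in Pro and 63.2 to 74.3 in Ortho, and the 11 T and NK cell markers to 22.3 to 33.0 in Pro and 39.9 to 45.9 in Ortho. In single libraries up to 3 of the macrophage markers and up to 4 of the T and NK cell markers were at 0, and no B cell marker was. In each library, 7 to 9 of the T and NK cell markers and 5 or 6 of the macrophage markers were under 1 FPKM. Nkg7 alone held 23.6 of the mean T and NK cell sum of 27.4 FPKM in Pro and 35.1 of 43.8 in Ortho. Most of the macrophage sum was Csf1r (11.7 FPKM in Pro, 26.4 in Ortho) and Cd68 (12.3 and 29.1), while Vcam1 measured 3.03 and 2.25. The part of such cells in the stage differences below was not tested. In such bulk samples, fewer cells of a type and less RNA per cell cannot be told apart.

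The 10 isotypes were expressed at very unequal levels. In Pro the order of mean FPKM was Tuba1b, Tubb5, Tubb4b, Tuba1c, Tuba1a, Tuba4a, Tubb2a, Tuba8, Tubb1 and Tubb6, from 717 FPKM down to 1.37. Only Tuba1b and Tubb5, and Tuba8 and Tubb1, were neighbours whose Pro libraries overlapped. In Baso Tubb4b and Tuba1b held the top of the order with overlapping libraries, and Tuba1a and Tuba4a overlapped too. In Poly no pair of neighbours overlapped. In Ortho Tuba4a stood above Tuba1a, with its libraries overlapping those of Tuba1c.

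**Figure D1:**
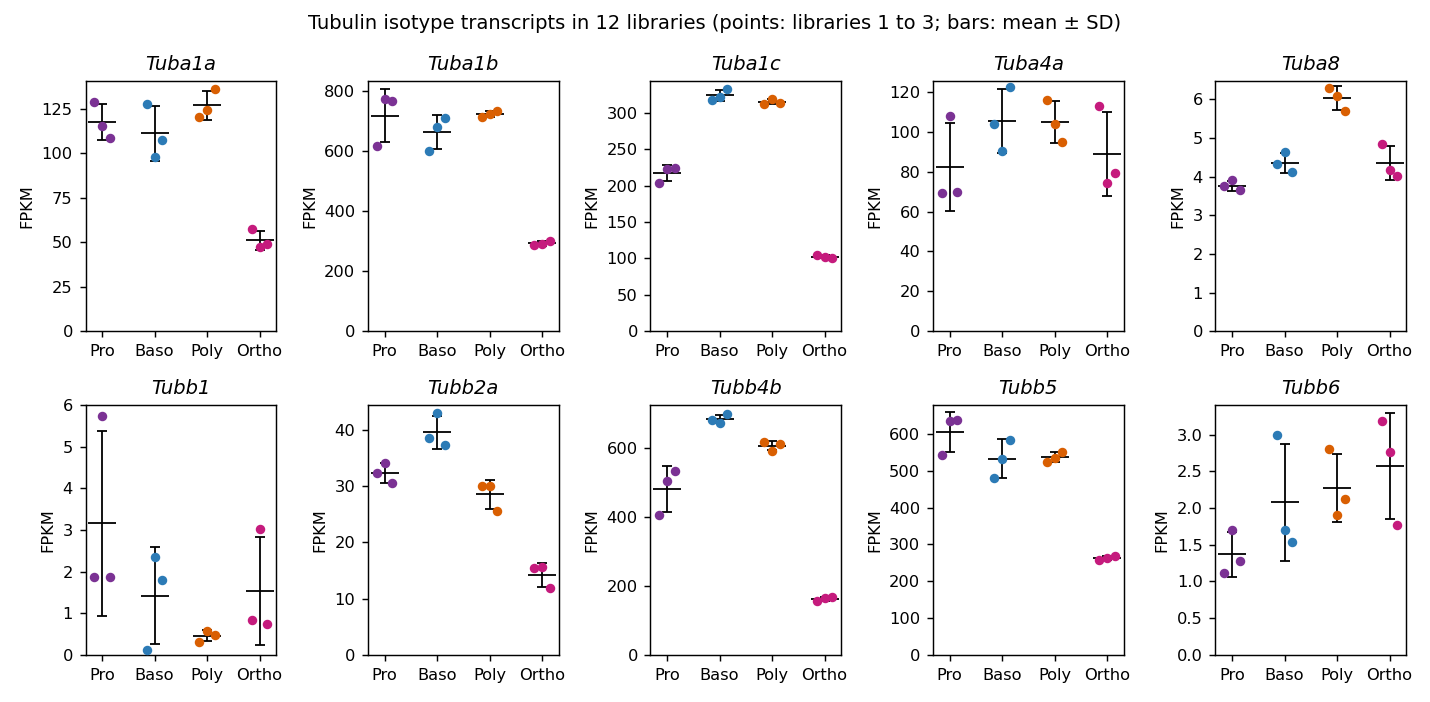
FPKM of each of the 10 tubulin isotypes (vertical axis, linear from 0, a scale of its own in each panel) in the Pro, Baso, Poly and Ortho libraries. Points are single libraries, 1 to 3 from left to right, and bars are the mean ± SD (n = 3). Tuba1a, Tuba1b, Tuba1c, Tubb2a, Tubb4b and Tubb5 were lowest in Ortho with no overlap with any other stage, while the Tuba4a libraries of all stages overlapped.

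Tuba1b, the most abundant alpha-tubulin transcript, was lower in Ortho than in the other stages. Its values were 614, 771 and 765 FPKM in Pro libraries 1 to 3, 598, 679 and 709 in Baso, 711, 724 and 731 in Poly and 287, 288 and 301 in Ortho. The Ortho libraries lay below all others, and the Pro libraries overlapped those of Baso and Poly. On the scale log2(FPKM + 1), tested with limma over all 12994 genes expressed, Tuba1b fell by 1.29 ± 0.0963 (SE) from Pro to Ortho (adjusted p = 3.00e-07). It fell by 1.30 from Poly to Ortho (adjusted p = 1.11e-06, limma). From Pro to Baso the difference was -0.11 (adjusted p = 0.346, limma), and -0.22 without Pro replicate 1 (adjusted p = 0.0281). With hemoglobin genes left out it was 0.21.

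Tuba1c, a close relative of Tuba1b, was higher in the middle stages before it fell. It measured 204, 223 and 225 FPKM in Pro, 318, 322 and 332 in Baso, 312, 319 and 314 in Poly and 105, 102 and 100.2 in Ortho. Baso and Poly lay above Pro in every library and overlapped each other, and Ortho lay below Pro in every library. The log2 difference was 0.58 ± 0.0597 (SE) from Pro to Baso (adjusted p = 1.38e-05, limma), -1.08 from Pro to Ortho (adjusted p = 3.59e-08) and -1.61 from Poly to Ortho (adjusted p = 1.37e-08). Of all genes tested, 1.12% had a lower value than Tuba1c from Poly to Ortho.

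Tuba1a, the tubulin isotype best known from neurons, followed Tuba1b at a lower level. Its values were 129, 115 and 109 FPKM in Pro, 128, 97.9 and 107 in Baso, 120.2, 124 and 136 in Poly and 57.2, 47.1 and 48.7 in Ortho. Ortho was again separate from the other stages, which overlapped. The log2 difference was -1.19 from Pro to Ortho (adjusted p = 1.71e-06, limma) and -1.30 from Poly to Ortho (adjusted p = 3.40e-06).

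Tuba4a, which has no encoded tyrosine at its end, did not pass the test in any of the 5 comparisons with all libraries included. The libraries gave 69.1, 108 and 69.9 FPKM in Pro, 104, 90.1 and 122 in Baso, 116, 104 and 94.9 in Poly and 113, 74.3 and 79.3 in Ortho. All 4 stages overlapped, and 1 library stood high in Pro (replicate 2) and in Ortho (replicate 1). The log2 difference from Pro to Ortho was 0.12 with a 95% confidence interval of -0.31 to 0.54 (adjusted p = 0.605, limma). The falls of the 3 Tuba1 genes lie outside this interval, though the difference between genes was not tested. Scaling the libraries to equal sums made the value -0.25, and leaving out hemoglobin genes made it 0.60. Without Pro replicate 2, Tuba4a differed by 0.58 from Pro to Baso (adjusted p = 0.01655, limma). It then differed by 0.58 from Pro to Poly (adjusted p = 0.0143, limma) and by 0.32 from Pro to Ortho (adjusted p = 0.1175). Stk16, the protein kinase gene that overlaps it, measured 74.8 ± 9.11 FPKM (SD, n = 3) in Pro and 42.4 ± 3.97 in Ortho.

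Tuba8, a diverged alpha-tubulin that ends in a phenylalanine codon, was highest in Poly. It measured 3.75, 3.90 and 3.64 FPKM in Pro, 4.31, 4.63 and 4.12 in Baso, 6.30, 6.09 and 5.70 in Poly and 4.85, 4.17 and 4.02 in Ortho. Poly lay above every other library, and Baso and Ortho overlapped. The log2 difference was 0.56 ± 0.0903 (SE) from Pro to Poly (adjusted p = 0.000218, limma) and -0.40 from Poly to Ortho (adjusted p = 0.00584), both under 2-fold. From Pro to Ortho it was 0.16 (adjusted p = 0.122, limma), and -0.13 with libraries scaled to equal sums. With hemoglobin genes left out, Tuba8 was higher in Ortho than in Pro at an adjusted p under 0.05, as given below.

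Tubb5, the most abundant beta-tubulin transcript in Pro, overlapped between Pro, Baso and Poly and was lower in Ortho. Its values were 544, 634 and 639 FPKM in Pro, 479.7, 533 and 585 in Baso, 523, 535 and 552 in Poly and 257, 263 and 268 in Ortho. Only Ortho was separate from the other stages. From Pro to Baso the log2 difference was -0.19 (adjusted p = 0.0899, limma), and 0.13 with hemoglobin genes left out. The adjusted p was 0.0162 without Pro replicate 1 (-0.26) and 0.0378 without Baso replicate 3 (-0.26). Tubb5 fell by 1.20 ± 0.0874 (SE) on the log2 scale from Pro to Ortho (adjusted p = 2.47e-07, limma) and by 1.03 from Poly to Ortho (adjusted p = 3.41e-06).

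Tubb4b had the steepest fall of the 10 isotypes from Pro to Ortho, on each scaling of the libraries tried. It measured 405, 504 and 532 FPKM in Pro, 679, 672 and 697 in Baso, 616, 589.8 and 611 in Poly and 156, 164 and 167 in Ortho. Baso stood above Poly, Poly above Pro and Pro above Ortho, with no library out of place. The log2 difference was 0.52 ± 0.0923 (SE) from Pro to Baso (adjusted p = 0.000617, limma), -1.55 from Pro to Ortho (adjusted p = 5.73e-08) and -1.89 from Poly to Ortho (adjusted p = 6.37e-08). Only 0.446% of all genes tested had a lower value from Poly to Ortho.

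Tubb2a, a minor beta-tubulin here, was highest in Baso. It measured 32.4, 34.0 and 30.6 FPKM in Pro, 38.5, 42.9 and 37.3 in Baso, 29.97, 30.1 and 25.6 in Poly and 15.5, 15.5 and 11.8 in Ortho. The stages did not overlap. Tubb2a fell by 1.13 ± 0.11 (SE) from Pro to Ortho (adjusted p = 2.32e-06, limma), and its difference from Poly to Ortho was -0.96 (adjusted p = 3.96e-05), just under 2-fold on this scale.

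Tubb6, at the bottom of the order with Tubb1, was the only isotype that was higher in Ortho than in Pro at an adjusted p under 0.05. It measured 1.11, 1.71 and 1.29 FPKM in Pro, 2.995, 1.70 and 1.54 in Baso, 2.80, 1.91 and 2.12 in Poly and 3.18, 2.76 and 1.77 in Ortho. Ortho lay above Pro in every library, while Baso, Poly and Ortho overlapped. The log2 difference from Pro to Ortho was 0.58 ± 0.205 (SE) (adjusted p = 0.0226, limma). It lay between 0.45 and 0.75 when each library was left out in turn, and the adjusted p was 0.0735 without Pro replicate 1, 0.0568 without Pro replicate 3, 0.0899 without Ortho replicate 1 and 0.0663 without Ortho replicate 2. With libraries scaled to equal sums it was 0.34 (adjusted p = 0.145). With hemoglobin genes left out, Tubb6 remained higher in Ortho at an adjusted p under 0.05, as given below.

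Tubb1 varied widely between libraries of a stage. Its values were 1.87, 5.73 and 1.88 FPKM in Pro, 0.129, 2.35 and 1.79 in Baso, 0.318, 0.584 and 0.486 in Poly and 0.830, 3.02 and 0.732 in Ortho. Replicate 2 was the highest library in each stage, and only Poly was separate from Pro and Ortho. Tubb1 fell by 1.39 ± 0.455 (SE) on the log2 scale from Pro to Poly (adjusted p = 0.0184, limma). Without Pro replicate 2 the difference was -0.98 (adjusted p = 0.0805), and without Poly replicate 1 it was -1.32 (adjusted p = 0.0505).

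Several transcripts of platelets moved with stage in the same libraries, not all in 1 direction. The 16 megakaryocyte and platelet markers summed to 101 to 169.7 FPKM in Pro, 82.1 to 142 in Baso, 78.3 to 89.4 in Poly and 71.2 to 85.5 in Ortho, with only Gp6 at 0, in Ortho replicate 1. Of the 15 that were tested, 6 were called lower from Pro to Ortho and 0 higher, against 23.8% and 6.33% of all genes tested. Ppbp (-2.52), Gp9 (-1.96) and Gp5 (-1.80) had the lowest log2 differences among the 6. Itga2b, an integrin subunit of platelets and the most abundant of the list, was higher in Ortho (25.0 ± 1.12 FPKM, SD, n = 3) than in Pro (18.9 ± 2.58) by 0.39 on the log2 scale (adjusted p = 0.0338, limma). Thbs1, which encodes thrombospondin, measured 12.2 ± 1.79 FPKM in Pro and 21.1 ± 11.8 in Ortho (adjusted p = 0.219, limma), with 34.7 in Ortho replicate 1. Ppbp, a platelet chemokine, measured 10.8, 31.5 and 37.0 FPKM in Pro, 0.419, 24.2 and 8.64 in Baso, 0.714, 2.54 and 3.39 in Poly and 1.38, 5.75 and 3.79 in Ortho. Pf4, another platelet chemokine, chosen after its values were seen, measured 21.0, 22.5 and 41.4 FPKM in Pro and 5.75, 9.55 and 7.34 in Poly. Replicate 2 was the highest of the Baso and Ortho libraries for Tubb1, Ppbp and Pf4 alike, but in Pro both chemokines were highest in replicate 3, where Tubb1 was 1.88 FPKM. The part of platelet RNA in the Tubb1 values was not tested.

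**Figure D2:**
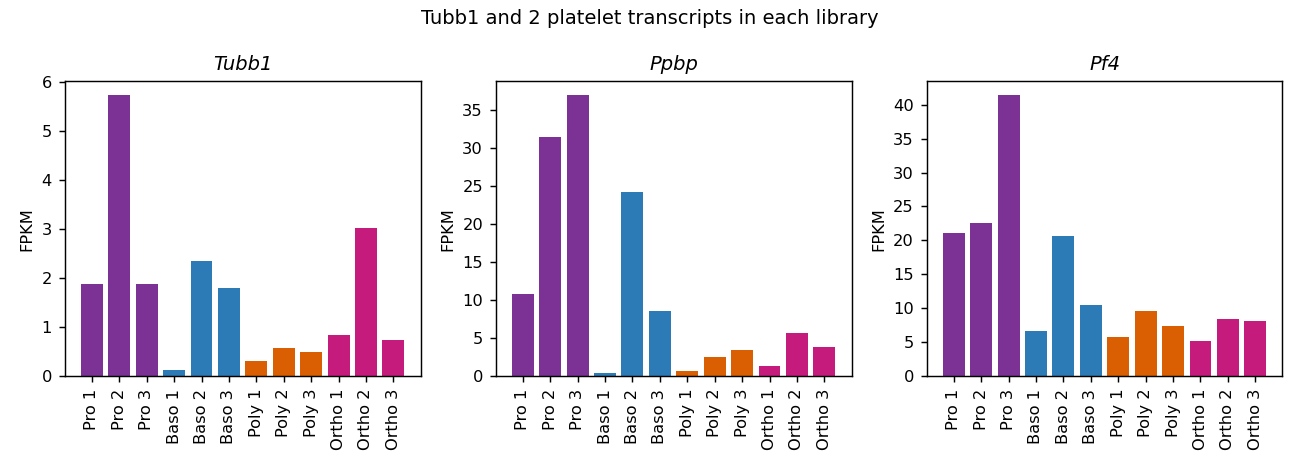
FPKM of Tubb1 and of the platelet genes Ppbp and Pf4 (vertical axes, linear from 0) in each of the 12 libraries, with 1 bar per library and a colour per stage. In Pro, Tubb1 was highest in replicate 2 (5.73 FPKM) and Ppbp and Pf4 in replicate 3 (37.0 and 41.4 FPKM).

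Counted over the 10 isotypes, most calls involved Ortho. A gene was called when its adjusted p was below 0.05 and its difference was 1 or more in size on the log2 scale, and all 10 isotypes passed the filter of 1 FPKM in at least 3 libraries. From Pro to Baso 0 of 10 were called by limma, against 10.4% of all genes tested, and at an adjusted p under 0.05 alone 3 were higher (Tuba1c, Tubb4b and Tubb2a) and 0 lower, against 14.9% of all genes higher and 57% in either direction. At an unadjusted p under 0.05 the same 3 isotypes passed. The median log2 fold change was 0.22 for the isotypes and -0.23 for all genes tested. These counts depended on scaling. With hemoglobin genes left out, 6 were higher and 0 lower at the adjusted p alone (median 0.48, beside 0.03 for all genes). Centring each library on its median also gave 6 and 0 (0.52, beside 0.07). Equal sums gave 2 higher and 2 lower (0.07, beside -0.38). The share of all genes past the adjusted p alone was not counted on these scalings.

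From Pro to Poly 1 of 10 was called, Tubb1, against 16.4% of all genes tested in either direction and 12.8% lower. The adjusted p alone was passed by 3 isotypes in the higher direction, Tuba1c (0.54), Tuba8 (0.56) and Tubb4b (0.34), and by Tubb1 in the lower, against 23.3% of all genes higher and 66.1% in either direction. From Baso to Poly 0 of 10 were called, against 0.516% of all genes tested, and the adjusted p alone was passed by Tuba8 (0.39) and Tubb2a (-0.46), against 12.4%. Tuba8 and Tubb2a were also the isotypes at an unadjusted p under 0.05 from Baso to Poly. From Pro to Poly the counts at the adjusted p alone depended on scaling. They were 7 higher and 1 lower with hemoglobin genes left out, and the same with each library centred on its median. Equal sums gave 2 higher and 3 lower. The share of all genes past the adjusted p alone was not counted on these scalings.

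From Pro to Ortho 6 of 10 fell and 0 rose by this rule, namely Tuba1a, Tuba1b, Tuba1c, Tubb2a, Tubb4b and Tubb5. Of all genes tested, 30.1% were called, and 23.8% were called lower. From Poly to Ortho 5 of 10 fell, all of these but Tubb2a, against 5.86% of all genes called and 4.81% called lower. The median log2 fold change of the isotypes was -1.11 from Pro to Ortho and -0.99 from Poly to Ortho, against -0.42 and -0.08 for all genes tested. The comparisons with Pro share the Pro libraries, and both comparisons with Ortho share the Ortho libraries, so they are not independent. At the adjusted p alone 7 of 10 passed in each, against 75.9% of all genes from Pro to Ortho and 26.1% from Poly to Ortho.

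The libraries of both stages did not overlap for 4 of 10 isotypes between Pro and Baso, against 61.1% of all genes tested, for 6 between Pro and Poly, against 69.8%, and for 8 between Pro and Ortho, against 76.8%. They did not overlap for 4 between Baso and Poly, against 36.4%, and for 8 between Poly and Ortho, against 42.6%.

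The size of these falls and the number called depended on how the libraries were scaled, but the direction of the 6 did not. With hemoglobin genes left out and the rest rescaled, the median of all genes from Pro to Ortho was -0.03. Of 12986 genes tested on this scaling, 1153 were called lower and 1990 higher, and Tubb4b (-1.06) was the 1 isotype called. The other 5 then lay between -0.59 (Tuba1c) and -0.79 (Tuba1b), each with an adjusted p under 0.05 by limma, and Tuba4a (0.60), Tuba8 (0.55) and Tubb6 (0.89) were higher at an adjusted p of 0.0145, 0.000157 and 0.00252. Centring each library on its median also left 1 call, Tubb4b, beside 1293 of 12994 genes tested that were called lower. With libraries scaled to equal sums, the 6 remained called, beside 4857 of 12994 genes tested called lower, and Tuba4a and Tuba8 lay below 0. From Poly to Ortho, Tuba1a, Tuba1b, Tuba1c and Tubb4b were called on all 4 scalings, and Tubb5 was -0.88 under median centring as well as without hemoglobin genes.

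**Figure D3:**
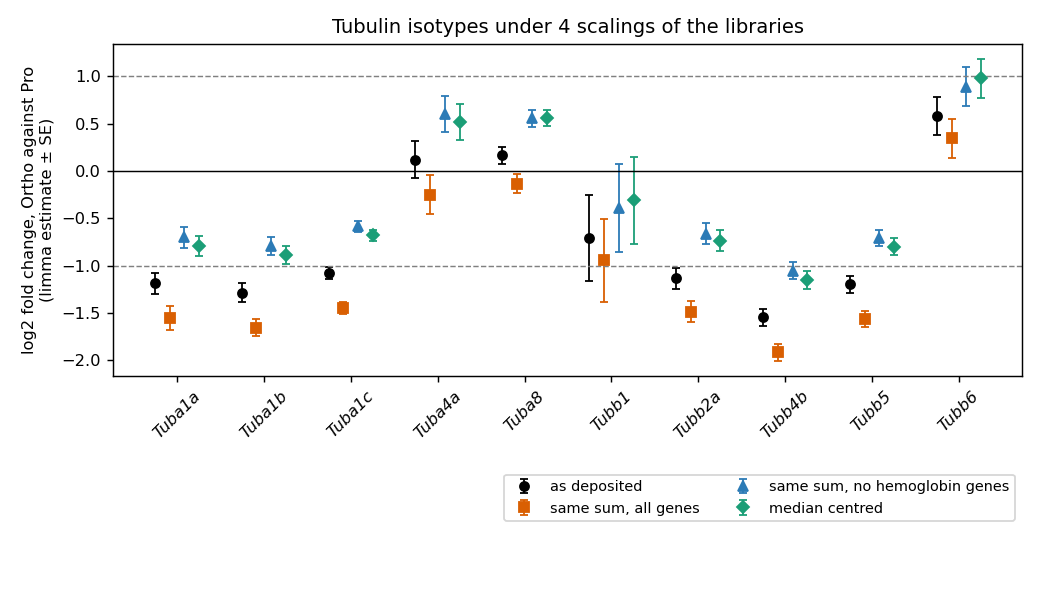
Log2 fold change from Pro to Ortho of each isotype (limma estimate ± SE, vertical axis) under 4 scalings of the libraries, with dashed lines at the threshold of 1 in either direction. Tuba1a, Tuba1b, Tuba1c, Tubb2a, Tubb4b and Tubb5 lay below 0 on all 4 scalings, Tubb4b passed -1 on all 4, and Tuba4a and Tuba8 changed sign when libraries were scaled to equal sums.

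Ratios between isotypes, and their shares of summed alpha- or beta-tubulin, do not depend on how a library is scaled. Sums of FPKM do, and shares of all FPKM depend on the hemoglobin content. All are given as descriptions with no test. Summed alpha-tubulin was 1138 ± 105 FPKM (SD, n = 3) in Pro, 1207 ± 62.7 in Baso, then 1275 ± 8.31 in Poly and 538 ± 25.5 in Ortho. Summed beta-tubulin was 1123 ± 121, 1258 ± 60.9, 1174 ± 16.8 and 444 ± 9.39 FPKM in the same order. The ratio of summed alpha to summed beta was 1.04, 1.04 and 0.973 in the Pro libraries and 1.31, 1.15 and 1.19 in Ortho, with no overlap. All 10 isotypes together made up 0.436% ± 0.0339 (SD, n = 3) of all FPKM in Pro and 0.147% ± 0.0065 in Ortho. Of the FPKM outside the hemoglobin genes, they made up 0.476% in Pro, then 0.647% in Baso, 0.658% in Poly, and 0.291% once in Ortho.

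Within alpha-tubulin, Tuba4a and Tuba8, which lack an encoded final tyrosine, took up a larger share in Ortho. They were grouped after the values were seen and did not fall from Pro to Ortho as the Tuba1 genes did. The larger share therefore follows from that choice and is no result about the last codon. Tuba4a itself measured 82.3 FPKM in Pro and 88.8 in Ortho (adjusted p = 0.605, limma). Tuba4a and Tuba8 together made up 7.14%, 9.16% and 6.27% of alpha-tubulin FPKM in the Pro libraries, 9.39%, 7.94% and 9.91% in Baso, 9.66%, 8.59% and 7.84% in Poly and 20.8%, 15.2% and 15.6% in Ortho. Every Ortho library lay above every other, and nearly all of this share was Tuba4a, with 16.4% ± 3.05 (SD, n = 3) in Ortho against 7.19% ± 1.48 in Pro. The Tuba8 share was 0.333% in Pro and 0.806% in Ortho. Tuba1b held 62.9% ± 2.54 of alpha-tubulin in Pro and 54.3% ± 3.19 in Ortho, and Tuba1c held 19.1% in Pro, then 26.9% in Baso, 24.7% in Poly, and 19.0% once in Ortho.

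**Figure D4:**
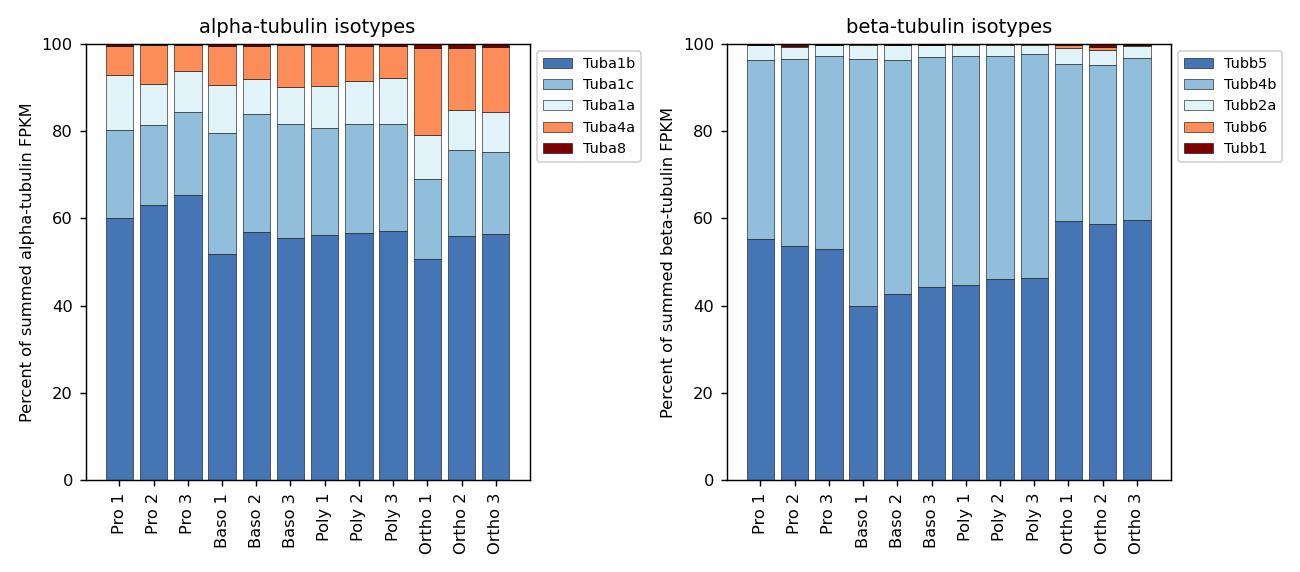
Share of each isotype in the summed alpha-tubulin FPKM (left) and summed beta-tubulin FPKM (right) of each of the 12 libraries, in percent and stacked to 100. Tuba4a widened to 19.9%, 14.4% and 14.9% of alpha-tubulin in the Ortho libraries, and the Tubb4b share of beta-tubulin was above 50% in the Baso and Poly libraries alone.

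Within beta-tubulin, Tubb4b and Tubb5 changed places from stage to stage. Tubb4b made up 42.7% ± 1.51 (SD, n = 3) of beta-tubulin FPKM in Pro, then 54.3% ± 2.02 in Baso, 51.6% ± 0.828 in Poly, and 36.6% ± 0.559 in Ortho. Tubb5 made up 54.0%, 42.3%, 45.7% and 59.2% in the same order. The ratio of Tubb4b to Tubb5 was 0.745, 0.794 and 0.834 in the Pro libraries, 1.42, 1.26 and 1.19 in Baso, 1.18, 1.102 and 1.11 in Poly and 0.608, 0.623 and 0.624 in Ortho. The 4 stages did not overlap in this ratio. The ratio of Tuba1c to Tuba1b was also highest in Baso, at 0.305 ± 0.0237 in Pro, then 0.492 ± 0.0345 in Baso, 0.437 ± 0.00629 in Poly, and 0.351 ± 0.0161 in Ortho, with the limit on shared reads given above. Unlike the ratio of Tubb4b to Tubb5, it was not lower in Ortho than in Pro, and every Ortho library (0.333 to 0.365) lay above every Pro library (0.289 to 0.332).

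**Figure D5:**
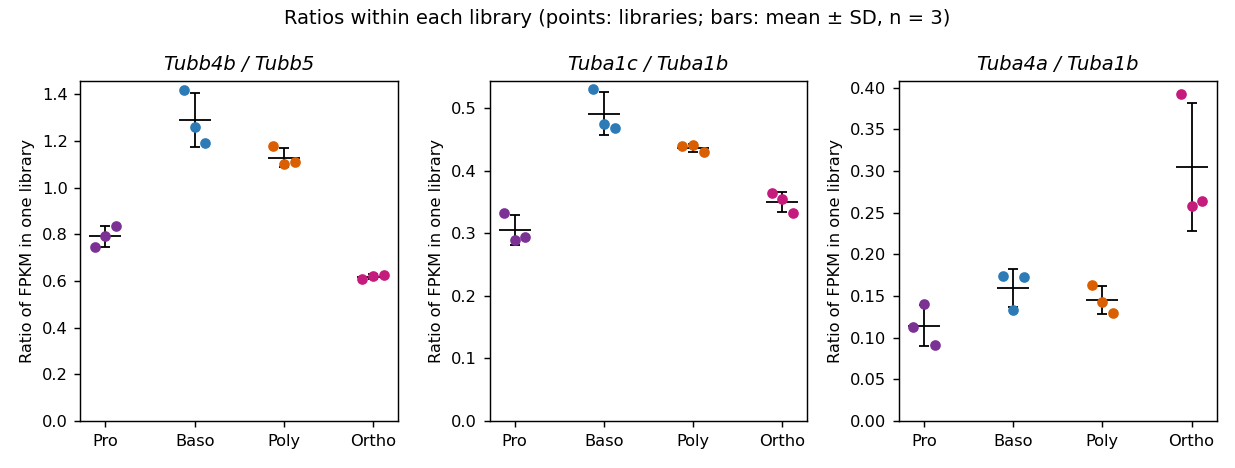
Ratio of FPKM within each library for Tubb4b to Tubb5, Tuba1c to Tuba1b and Tuba4a to Tuba1b (vertical axes, linear from 0). Points are libraries and bars the mean ± SD (n = 3), and Tubb4b exceeded Tubb5 in the Baso and Poly libraries, with ratios from 1.102 to 1.42.

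The promoters of Tubb4b and Tubb5 are shown because these genes traded places. The sequences are the 150 bases before the RefSeq start on GRCm38.p6, the assembly of mm10, read on the minus strand, at chr2:25224703-25224852 for Tubb4b and chr17:35838302-35838451 for Tubb5. Capitals mark CCAAT, the box bound by the factor NF-Y and common in promoters of cell cycle genes, searched as CCAAT on both strands.
Tubb4b: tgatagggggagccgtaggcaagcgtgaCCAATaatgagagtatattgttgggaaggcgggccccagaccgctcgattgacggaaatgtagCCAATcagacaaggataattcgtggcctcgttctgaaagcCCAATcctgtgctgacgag
Tubb5: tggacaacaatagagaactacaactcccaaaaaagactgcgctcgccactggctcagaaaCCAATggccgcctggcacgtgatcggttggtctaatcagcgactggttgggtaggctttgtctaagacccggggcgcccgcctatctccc
In the 250 bases before the start, Tubb4b held 5 CCAAT boxes, at 221, 188, 122, 59 and 19 bases, and Tubb5 held 2, at 198 and 90 bases. Of 32851 mouse promoters of this length, 33.8% held at least 1 box, 10.1% at least 2 and 0.213% at least 5. Tuba1a and Tuba1c held 1 each, and Tuba1b, Tuba4a, Tuba8, Tubb1 and Tubb2a held none. Tubb6 was not searched. A match is a description of the letters and not of a bound site.

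The genes whose profile over the 12 libraries was most like that of each isotype were found by Pearson's r of log2(FPKM + 1), among tested genes with a mean of at least 10 FPKM. The libraries fall into 4 stages and share their hemoglobin content, so r describes the likeness of profiles and carries no test. Tubb4b was most like Gtse1 (r = 0.998), Nuf2 (0.997) and Natd1 (0.994), and Tuba1c was most like Kif18b (0.997), Kif18a (0.994) and Spag5 (0.992). Nuf2 is a kinetochore protein, Kif18a and Kif18b are kinesins of the spindle, and Gtse1 and Spag5 bind spindle microtubules. Tuba1b was most like Gm14150 (0.993), with which it shares 16.6% of its 150-base windows, Rbbp4 (0.991) and Arhgap33 (0.991). Tubb5 was most like Dot1l (0.995), Brip1os (0.992) and Srrm1 (0.992), Tubb2a like Cenpa (0.985), and Tuba1a like Faf1 and Fam83d (0.984 each).

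Among the members themselves, r was 0.987 between Tubb4b and Tuba1c and 0.989 between Tubb5 and Tuba1b. Tuba4a was at 0.225 with Tuba1b, 0.250 with Tuba1a and 0.405 with Tuba1c, and its most similar gene was Senp7 (0.806). Tuba8 was most like Tmem30a (0.927), Tubb6 like Nfil3 (0.940) and the cytokine gene Osm (0.927), and Tubb1 like Bad (0.854), with Ppbp in the third place (0.838).

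The chaperonin that folds tubulin was lower from Baso on. All 8 subunits of CCT fell from Pro to Ortho, and 7 of 8 were called lower already in Baso, against 8.54% of all genes tested. Tcp1, its first subunit, measured 184.5 ± 32.0 FPKM (SD, n = 3) in Pro, then 79.8 in Baso, 66.2 in Poly, and 55.5 ± 3.35 once in Ortho, a log2 difference of -1.70 from Pro to Ortho (adjusted p = 1.01e-07, limma). Cct5 fell by 1.57 and Cct3 by 1.52 over the same stages. From Poly to Ortho 0 of 8 subunits were called by limma, and 0 passed the adjusted p alone, against 26.1% of all genes tested. At an unadjusted p under 0.05, 2 of 8 passed, and the share of all genes was not counted. With hemoglobin genes left out, 2 of 8 subunits were called lower in Baso and 3 of 8 in Ortho, and all 8 had an adjusted p under 0.05 in both comparisons. On that scaling 421 of 12986 genes tested were called lower in Baso and 1153 in Ortho. On the values as deposited, the median of the 8 was -1.19 from Pro to Baso and -1.47 from Pro to Ortho, beside -0.23 and -0.42 for all genes.

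Of 13 tubulin cofactors and prefoldin subunits tested, 6 fell and 1 rose from Pro to Ortho, beside 23.8% of all genes tested that fell and 6.33% that rose. Pfdn1 (-1.997) and Pfdn6 (-1.26), both subunits of prefoldin, and Arl2 (-1.41), a small GTPase that works with the cofactors, were among those that fell, while the prefoldin subunit Vbp1 was at 0.00. The gene that rose was Tbcel, which encodes a cofactor E-like protein known to destabilise tubulin. It measured 7.002, 8.97 and 10.98 FPKM in Pro, 21.6, 14.9 and 29.97 in Baso, 31.6, 18.3 and 16.4 in Poly and 74.6, 178.6 and 187 in Ortho. Ortho lay above every other library, with a log2 difference of 3.79 from Pro (adjusted p = 2.18e-06, limma) and 2.62 from Poly (adjusted p = 0.000177). It was higher on all 4 scalings. With hemoglobin genes left out, 1 of the 13 fell from Pro to Ortho, beside 1153 of 12986 genes tested.

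Among genes that seed, modify or bind microtubules, the counts called lower from Pro to Ortho stand beside the 23.8% of all genes tested that were called lower. Of 9 tested members of the gamma-tubulin ring complex, 5 fell, led by Mzt2 (-1.76), Tubgcp2 (-1.61) and Tubg1 (-1.57), the gamma-tubulin gene, and 0 rose. Of the other tubulins, 4 were tested and 2 fell, Tubg1 and the delta-tubulin gene Tubd1 (-1.35). Of 14 modifying enzymes 4 fell, a share near that of all genes, among them Ttll12 (-2.49), a member of the tyrosine ligase family, Ttll1 (-1.47), a glutamylase, and Svbp (-1.42), the partner of the enzymes that remove the last tyrosine. At the adjusted p alone, 6 of the 9 complex members and 6 of the 14 enzymes were lower in Baso than in Pro. Of all 12994 genes tested, 5465 were lower by the same rule, a share near that of the enzymes. With hemoglobin genes left out, the falls from Pro to Ortho were 4 in the ring complex, 1 in the other tubulins and 2 in the modifying enzymes. On that scaling 1153 of 12986 genes tested were called lower.

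Of 19 tested proteins that bind or stabilise microtubules 7 fell from Pro to Ortho, against the same 23.8% of all genes, led by Camsap2 (-1.97), which holds minus ends, Prc1 (-1.56), which bundles the spindle midzone, and Tacc3 (-1.54). Of 12 destabilising or severing proteins 5 fell, led by Katnal1 (-1.60), Kif18b (-1.38) and Kif2c (-1.32), and Stmn1, which sequesters dimers, measured 458 ± 137 FPKM (SD, n = 3) in Pro and 189 ± 1.64 in Ortho. From Poly to Ortho 7 of the 19 and 4 of the 12 fell, against 4.81% of all genes tested. From Pro to Baso limma called 0 of either list, against 10.4% of all genes in either direction. At the adjusted p alone, 6 of the 19 were higher and 7 lower. Of the 12, 4 were higher and 5 lower, against 57% of all genes in either direction. At an unadjusted p under 0.05, 13 of the 19 and 9 of the 12 passed, and the share of all genes was not counted. With hemoglobin genes left out, the falls from Pro to Ortho were 3 of 19 and 1 of 12, with 1 gene of each list called higher. Of all 12986 genes tested on that scaling, 1153 were called lower and 1990 higher.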

How the data were processed

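RNA was sequenced from sorted Pro, Baso, Poly and Ortho cells of mouse bone marrow, in 3 libraries each, grouped by their titles. Per the labels and the paper's methods, the authors trimmed reads with Cutadapt and Trimmomatic, aligned them to mm10 with HISAT2, used SAMtools and featureCounts, and deposited 1 FPKM value per gene and library. The labels and the methods name different lysis and library kits. The FPKM tool, the annotation, strand setting and versions are not given in the sources used here. Of the identifiers, 29785 of 29838 were found in GENCODE M21, which gave positions and coding ends, and promoters came from RefSeq. No step of 1 fragment could be recovered from low FPKM (the most common ratio bin held 2.60% to 5.84% of 920 to 1384 low genes), so depth is unknown, no counting error is given, and precision is the spread of the 3 libraries. Sums of FPKM ranged from 505624 to 691033 per library.

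All 12 libraries were fitted in one model by limma (version 3.58.1, R version 4.3.3) to log2(FPKM + 1), a pseudocount of 1, with a variance trend, for 12994 genes of at least 1 FPKM in at least 3 libraries, and fold changes on this scale understate those of low genes. Tests were two-sided, with Benjamini-Hochberg adjustment over all genes tested. Genes were called when the adjusted p was below 0.05 and the log2 difference was 1 or more in size. The fit was tested on simulated data. The authors' count test was not used on FPKM. Alternatives were pseudocounts of 0.1 and 5, no filter or a mean of at least 5 FPKM, 3 rescalings, no variance trend, only the stages compared, a replicate block, the adjusted p alone, and each library left out. Shares by last codon were added after the values were seen. Windows of 150 bases shared between annotated transcripts were counted with Python 3.11.15.

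The members and the gene lists were chosen with earlier results of these data known. Named genes were the 10 isotypes, up to 3 called genes with the largest change in each direction from Pro to Ortho and the 2 most abundant of each other list, and the 3 most correlated genes of each isotype. Outside this rule, Pf4 and Vcam1 were chosen after their values were seen, Stk16 for its overlap with Tuba4a and Gm15856 for its overlap with Tuba8. Libraries of the same replicate number deviated together between Baso and Poly (correlations of 0.182 to 0.238), Baso and Ortho (0.156 to 0.264) and Poly and Ortho (0.156 to 0.319), so that the numbers were taken to pair the Ter119+ stages, from the values only, and less so with Pro (0.00524 to 0.0968). The labels do not state a source of the pairing. The tests reported did not use it, apart from the alternative with a replicate block. Some items are not reported here.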

Additional observations from a re-analysis of the deposited data

How the results depend on the processing

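The number of isotypes called from Pro to Poly was 1, and 0 with a pseudocount of 5, with no filter on low values and with a mean of at least 5 FPKM, which left 7 isotypes to test and Tubb1 out. From Pro to Ortho it was 6, and 5 with a pseudocount of 5, 1 without hemoglobin genes and 1 under median centring, which removes the shared fall of non-hemoglobin transcripts by construction. Of all genes tested, 1153 of 12986 were called lower without hemoglobin genes and 1293 of 12994 under median centring. From Poly to Ortho the number of isotypes called was 5, and 6 with a pseudocount of 0.1 and with the same sum, and 4 without hemoglobin genes and under median centring. With the adjusted p alone, 3 were called from Pro to Baso, 4 from Pro to Poly, 7 from Pro to Ortho, 2 from Baso to Poly and 7 from Poly to Ortho. Over all genes, the share of calls that were higher from Pro to Ortho was 21.0%, 63.3% without hemoglobin genes, 61.6% with median centring and 6.20% with the same sum, and the median of all genes moved from -0.42 to -0.03, -0.03 and -0.72. With 1 library left out at a time the isotypes called numbered 0 to 0 from Pro to Baso, 0 to 1 from Pro to Poly, 6 to 6 from Pro to Ortho, 0 to 0 from Baso to Poly and 5 to 6 from Poly to Ortho. With a block for replicate number, the counts were 0, 1, 6, 0 and 5 in the same order and the block changed no call. At the adjusted p alone, the block added Tubb1 and Tubb5 from Pro to Baso (adjusted p = 0.0417 and 0.0418, limma) and Tubb6 from Pro to Poly (0.0419).

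Some small values changed sign. With libraries scaled to equal sums, Tuba1a (-0.069) and Tuba1b (-0.16) did from Pro to Poly, Tuba4a (-0.25) and Tuba8 (-0.13) from Pro to Ortho, and Tubb6 (-0.021) from Poly to Ortho. With hemoglobin genes left out, Tuba1a (0.23), Tuba1b (0.21) and Tubb5 (0.13) did from Pro to Baso, Tubb2a (0.16) and Tubb5 (0.18) from Pro to Poly, and Tuba4a (0.030) from Baso to Poly. With median centring the values were 0.21, 0.19 and 0.11 for Tuba1a, Tuba1b and Tubb5 from Pro to Baso, 0.072 and 0.078 for Tubb2a and Tubb5 from Pro to Poly, and -0.033 for Tubb5 from Baso to Poly. With 1 library left out the ranges crossing 0 were -0.089 to 0.074 for Tuba1b from Pro to Poly, -0.057 to 0.085 for Tubb5, -0.11 to 0.11 for Tuba4a and -0.014 to 0.31 for Tubb6 from Baso to Poly, -0.067 to 0.32 for Tuba4a from Pro to Ortho, and -0.013 to 0.28 for Tubb6 from Poly to Ortho. Of 1155 alternative values, 1095 kept direction and side of the threshold, 27 changed sign, 17 lost a call and 16 gained one. Many of these could not change direction. Leaving out a library outside the stages compared keeps the log2 difference as it was. So do no variance trend, only the stages compared, a replicate block and the adjusted p alone. The last drops the rule on size, which added calls in each comparison.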
